A study of Mus musculus with 24 samples.

Results

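The neural retinas of PRDM13-OE mice given doxycycline (dox) were compared with those of wildtype littermates given the same dox. The 6 libraries, 3 retinas for each genotype, were chosen by genotype, tissue and treatment label out of 24 libraries of retinas and eye cups. PRDM13-OE mice were heterozygous for an inducible human PRDM13 cassette in the Rosa26 locus on a C57BL/6J background, in which the ubiquitous EF-1α promoter drives the reverse transactivator and a TRE3G promoter drives PRDM13. Both groups drank 2 mg/ml dox with 10% sucrose for 72 hours from P28, and the wildtype mice carried no cassette. The cassette is not restricted to any retinal cell type or to the eye, so its dox response covers the whole animal. The 6 untreated retinas of the same 2 genotypes entered only as reference levels and in a test of the genotype difference with dox against that without. Counts were made on mouse genes, and reads from the human cassette itself were not analysed here.

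PRDM13 is a zinc finger transcription factor of the PR domain family. In the retina it is known from the amacrine cells, inhibitory interneurons of the inner retina, where it is needed for the GABAergic and glycinergic subtypes, and in the developing spinal cord it holds neurons to an inhibitory fate by restraining bHLH activators at their target genes. Rod and cone photoreceptors, which make up most cells of the mouse retina, convert light into a neural signal, Müller glia span the tissue and supply it, and the lens, blood and pigment epithelium lie against it and can be carried along in a dissection.

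The 6 libraries held between 16261009 and 19134387 counts on genes, and no 2 were copies of each other. Levels are given as CPM, counts divided by the library total and scaled with edgeR's TMM factors over all 12 retinas, and values are listed in the order of retinas 1, 2 and 3 of a group. Rod and cone genes were abundant in every library. Lens transcripts were not even: the 16 crystallin genes of the list added up to 43.3, 55.1 and 31.2 CPM in the PRDM13-OE retinas with dox and to 12760, 5680 and 168 CPM in the wildtype retinas with dox. Wildtype retinas 1 and 2 therefore stood apart from all other retinas, of which the untreated ones reached 1010 CPM. The libraries also differed in sex. All 3 PRDM13-OE retinas and wildtype retinas 1 and 2 had Xist and no count on Ddx3y, Uty or Eif2s3y, whereas wildtype retina 3, the one with few crystallin transcripts, had 61.0 CPM of Ddx3y and no count on Xist. Lens content and sex thus split the wildtype group in the same way, and their parts in a difference between wildtype retinas cannot be told apart.

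The genotypes were set against each other gene by gene in edgeR (quasi-likelihood F test). A call needed an adjusted p below 0.05 by Benjamini-Hochberg and an absolute log2 fold change over 1. Of 20560 genes tested, 186 were called higher in the PRDM13-OE retinas (0.905%) and 309 lower (1.5%), together 2.41%. With library size in place of TMM factors the split moved to 279 higher and 269 lower. Leaving out PRDM13-OE retina 2 left 109 higher calls, and the counts over the 6 such refits ran from 109 to 172 higher and from 209 to 346 lower. The retinas of the 2 groups were fully separate in 185 higher calls and 272 lower calls, beside 15.9% and 15.6% of all genes tested that did not overlap in these directions. In bulk tissue, fewer cells of a type and less RNA per cell cannot be told apart.

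The lens, blood and photoreceptor lists, 140 genes in all, held 47 of the 309 lower calls and 3 of the 186 higher calls. The 47 were 25 lens, 5 blood and 17 photoreceptor genes. The 3 were Pde6c, the catalytic subunit of the cone phosphodiesterase, and the blood genes Gata1 and Itga2b. Gata1 lost its call without PRDM13-OE retina 1, PRDM13-OE retina 3, wildtype retina 1 or wildtype retina 2 (adjusted p 0.0535 to 0.06), and Itga2b without PRDM13-OE retina 2, PRDM13-OE retina 3 or wildtype retina 2 (adjusted p 0.0546 to 0.0733). Outside those lists lay 262 lower calls, of which 222 were protein coding, and 183 higher calls, of which 65 were protein coding. Without PRDM13-OE retina 1, the 262 came to 168, and the 183 came to 107 without PRDM13-OE retina 2 and to 276 with library size.

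**Figure D1:**
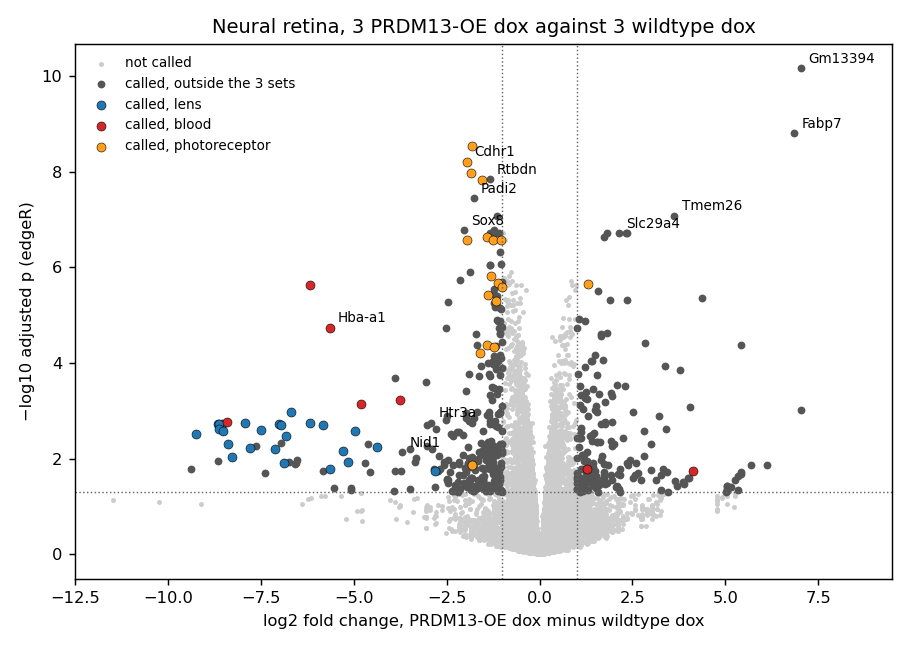
Each point is 1 of the 20560 genes tested, placed by its log2 fold change (PRDM13-OE dox minus wildtype dox) and the −log10 of its adjusted p from edgeR, with dotted lines at the call limits. Blue lens genes lie far to the left at modest p. Orange photoreceptor genes called lower lie between -1.96 and -1.02, most of them at small p, and the orange Pde6c lies on the right. Fabp7, Tmem26 and the pseudogene Gm13394 stand out on the right.

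The clearest rise of a protein coding gene was that of Fabp7, which encodes the brain fatty acid binding protein of radial glia and neural progenitors. Fabp7 was at 104, 102 and 95.1 CPM in the PRDM13-OE retinas with dox and at 0.457, 0.644 and 1.49 CPM in the wildtype retinas with dox. The log2 fold change was 6.86 ± 0.18 SE, adjusted p = 1.58e-09, and all 6 untreated retinas stayed between 0.710 and 1.80 CPM. None of the other 9 retinas thus came near the level of the 3 induced ones. Of the 5 fatty acid binding protein genes tested, a list written after the values were seen, Fabp7 was the only one called higher, and Fabp5 was called lower with its excess in wildtype retinas 1 and 2 (97.4, 39.1 and 22.3 CPM, beside 22.1, 20.8 and 17.8 CPM in PRDM13-OE). Of all genes tested, 0.905% were called higher and 1.5% lower. Fabp5 lost its call without PRDM13-OE retina 1, PRDM13-OE retina 2, PRDM13-OE retina 3 or wildtype retina 1 (adjusted p 0.0638 to 0.134).

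Tmem26, a transmembrane protein gene, was at 46.1, 46.5 and 48.4 CPM against 3.83, 2.52 and 5.06 CPM, a log2 fold change of 3.63 ± 0.16 SE, adjusted p = 8.40e-08. Slc29a4, the plasma membrane monoamine transporter, was at 138, 171 and 147 CPM against 39.5, 30.6 and 32.7 CPM (2.15 ± 0.10 SE, adjusted p = 1.95e-07). Rspo2, a secreted enhancer of Wnt signalling, was at 24.4, 24.4 and 22.5 CPM against 5.26, 4.24 and 4.29 CPM (2.37 ± 0.11 SE, adjusted p = 1.95e-07). In each of these genes the lowest PRDM13-OE retina lay above the highest of the other 9 retinas. Among the untreated retinas Slc29a4 kept to 26.6 and 35.1 CPM and Rspo2 to 3.74 and 9.14 CPM.

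The 200 bases directly before the annotated start of the 3 protein coding genes with the smallest adjusted p in each direction outside the lists are shown as the sequence before the genes that moved most surely. They come from GRCm39 at the start of the canonical transcript in GENCODE vM39, in gene orientation, and which start is used in these retinas was not measured. Capitals mark the motifs searched on both strands, which were the E-boxes CAGCTG and CAGATG (read as CATCTG on the other strand) and the CRX-type site TAATCC, which reads as GGATTA on the other strand. A match is a description of the letters only.
Fabp7 (chr10:57660756-57660955, + strand, higher in PRDM13-OE): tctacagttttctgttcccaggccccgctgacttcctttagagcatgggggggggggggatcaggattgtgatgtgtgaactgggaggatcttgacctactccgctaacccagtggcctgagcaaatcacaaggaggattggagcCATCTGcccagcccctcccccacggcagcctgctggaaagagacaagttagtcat
Tmem26 (chr10:68559376-68559575, + strand, higher in PRDM13-OE): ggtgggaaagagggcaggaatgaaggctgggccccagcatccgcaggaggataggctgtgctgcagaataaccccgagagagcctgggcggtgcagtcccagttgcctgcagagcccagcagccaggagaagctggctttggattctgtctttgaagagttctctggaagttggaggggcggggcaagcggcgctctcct
Slc29a4 (chr5:142687647-142687846, + strand, higher in PRDM13-OE): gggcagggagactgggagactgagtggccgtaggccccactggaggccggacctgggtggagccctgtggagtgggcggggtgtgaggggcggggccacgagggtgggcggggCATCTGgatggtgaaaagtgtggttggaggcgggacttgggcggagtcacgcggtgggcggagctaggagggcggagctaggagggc
Rtbdn (chr8:85674928-85675127, + strand, lower in PRDM13-OE): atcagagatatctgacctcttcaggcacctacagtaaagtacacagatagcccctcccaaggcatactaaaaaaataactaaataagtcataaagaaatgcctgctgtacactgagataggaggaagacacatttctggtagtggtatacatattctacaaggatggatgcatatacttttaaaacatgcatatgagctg
Padi2 (chr4:140633447-140633646, + strand, lower in PRDM13-OE): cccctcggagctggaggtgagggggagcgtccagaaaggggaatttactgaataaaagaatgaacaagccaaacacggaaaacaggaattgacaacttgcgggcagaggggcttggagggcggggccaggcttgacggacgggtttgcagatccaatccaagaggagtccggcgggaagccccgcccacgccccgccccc
Slc38a3 (chr9:107545182-107545381, - strand, lower in PRDM13-OE): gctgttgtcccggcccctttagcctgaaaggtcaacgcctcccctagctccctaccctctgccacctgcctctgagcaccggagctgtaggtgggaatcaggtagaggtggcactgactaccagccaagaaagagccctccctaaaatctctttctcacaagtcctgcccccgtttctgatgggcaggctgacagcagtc

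CATCTG stood 55 bases before the start of Fabp7 and 87 bases before that of Slc29a4, and the other 4 windows held none of the motifs. Over the same windows of 15127 protein coding genes tested, chromosome 18 left out, CAGCTG was found in 9.66%, CAGATG in 9.18% and TAATCC in 4.81%. In the 63 windows of higher calls outside the lists the shares were 9.52%, 12.7% and 7.94%. In the 49 of these above all 9 other retinas they were 6.12%, 10.2% and 4.08%. In the 221 windows of lower calls outside the lists they were 12.2%, 11.8% and 5.88%, in the 98 of these below all 9 other retinas 12.2%, 15.3% and 8.16%, and in the 17 windows of the called photoreceptor genes 29.4%, 23.5% and 29.4%.

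Further rises at more than 10 CPM included genes of varied known roles, chosen after their values were seen for their level. Gzmm, a granule serine protease known from lymphocytes, was at 78.4, 77.0 and 75.5 CPM against 25.4, 20.9 and 19.2 CPM (1.81 ± 0.09 SE, adjusted p = 1.95e-07). Gckr, the regulatory protein of glucokinase, was at 35.1, 38.0 and 38.4 CPM against 11.6, 10.0 and 12.0 CPM (1.72 ± 0.09 SE, adjusted p = 2.36e-07). Neither gene overlapped any of the other 9 retinas. Cdt1, which licenses replication origins, was at 14.4, 12.6 and 14.4 CPM against 4.86, 3.71 and 3.04 CPM (1.82 ± 0.16 SE, adjusted p = 2.37e-05), while 0 of the 12 genes of the cell cycle list were called, beside 2.41% of all genes tested called in either direction. Rab37, a small GTPase of secretory granules, was at 15.8, 14.3 and 14.0 CPM against 6.57, 7.03 and 5.00 CPM (1.23 ± 0.14 SE, adjusted p = 0.00012).

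Among the 15 largest protein coding rises outside the lists, 10 were under 10 CPM in the PRDM13-OE retinas. Prtg, the immunoglobulin family receptor protogenin of embryonic neural tissue, was above that level, at 15.9, 18.9 and 21.3 CPM against 4.12, 4.19 and 2.62 CPM (2.35 ± 0.17 SE, adjusted p = 4.76e-06). Ppef1, a calcium-binding protein phosphatase, was at 8.36, 7.75 and 9.33 CPM against 1.26, 0.591 and 1.73 CPM (2.83 ± 0.27 SE, adjusted p = 3.80e-05). Gje1, a gap junction gene, was at 3.24, 5.11 and 2.43 CPM against 0.286, 0.376 and 0.357 CPM (3.37 ± 0.37 SE, adjusted p = 0.000115), and Gnat3, the gustducin alpha subunit of taste cells and a relative of the photoreceptor transducins, was at 1.82, 1.21 and 1.51 CPM against 0.114, 0.107 and 0.417 CPM (2.81 ± 0.48 SE, adjusted p = 0.00265). The remaining ones, Ccdc175, Fam71f2, Insl6, Fmo2, Akr1b8, Cyp4f39 and Cd300lf, had mean levels between 0.709 and 3.74 CPM in the PRDM13-OE retinas. Of these, Insl6 had 1 to 3 counts and Fam71f2 at most 3 counts in each wildtype retina with dox. Cyp4f39 lost its call without PRDM13-OE retina 1 or 2 or wildtype retina 2 or 3, where the adjusted p ran from 0.0509 to 0.0959. Among the 15, Fmo2 was the only gene whose PRDM13-OE values reached into the untreated range. Its call was lost with DESeq2, with all 12 retinas in 1 fit (adjusted p = 0.0623) and with a sex term (adjusted p = 0.0997). Insl6 also lost its call with DESeq2, and Cyp4f39 with the sex term (adjusted p = 0.0613). With wildtype retinas 1 and 2 left out, the log2 fold change of Gnat3 was 1.83.

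**Figure D2:**
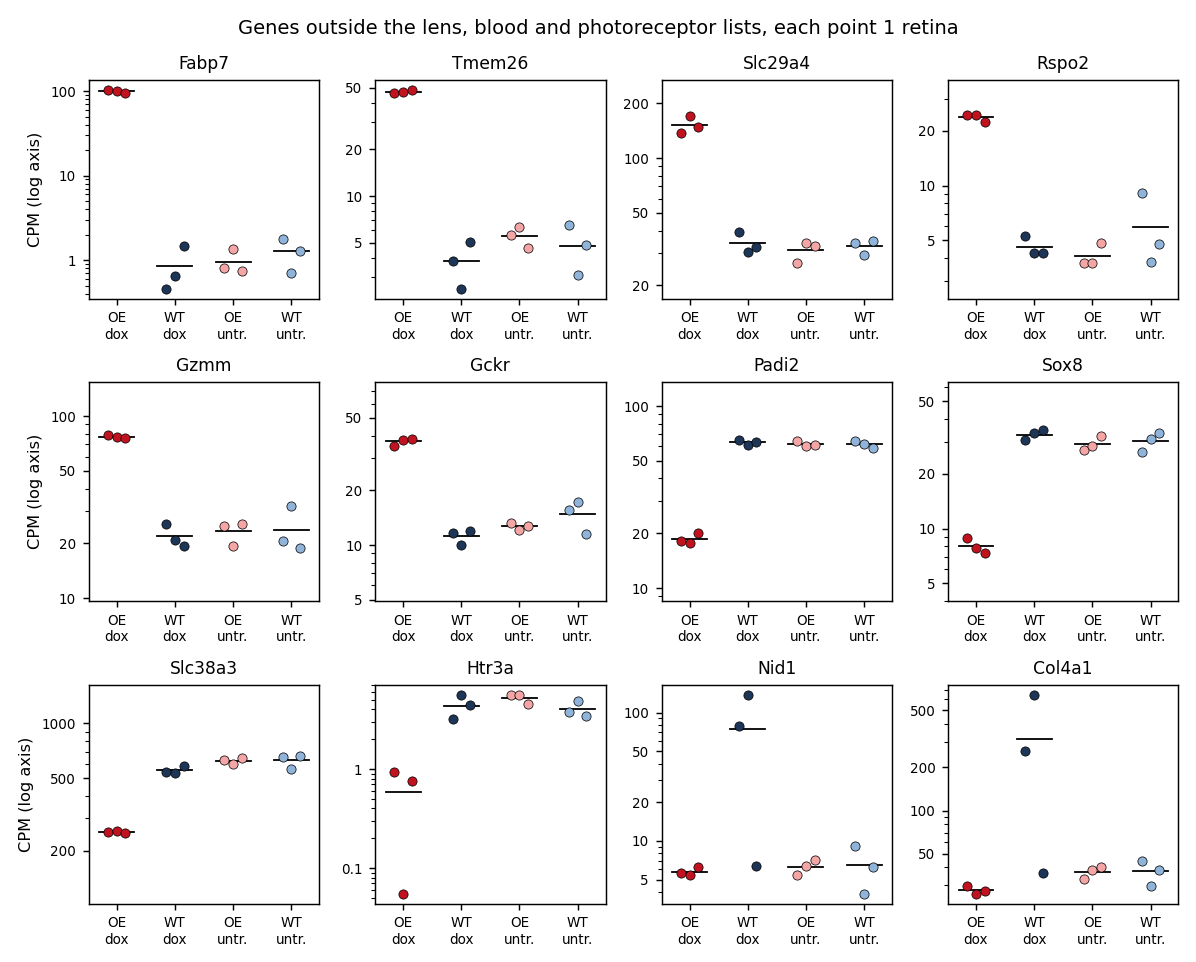
CPM on a log axis in all 12 retinas for 12 genes outside the lists, each point 1 retina and each bar the mean of 3, with OE for PRDM13-OE, WT for wildtype and untr. for untreated. In the first 6 panels the PRDM13-OE dox retinas lie above all others, in Padi2, Sox8, Slc38a3 and Htr3a below all others, and in Nid1 and Col4a1 wildtype dox retinas 1 and 2 lie far above the remaining 10 retinas.

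Transcripts that are not protein coding made up most of the higher calls but few of the lower ones. Of the 186 higher calls, 45.7% were lncRNAs (85 genes), 9.14% were of the unconfirmed class TEC (17 genes) and 8.06% pseudogenes (15 genes), and 36.6% were protein coding (68 genes). Of the 309 lower calls, 87.1% were protein coding (269 genes) and 11.3% were lncRNAs (35 genes). Read against the genes tested, 3.0% of 2830 lncRNAs were called higher and 1.24% lower, and 0.436% of 15586 protein coding genes were called higher and 1.73% lower. The median log2 fold change was 0.25 over the lncRNAs tested and -0.02 over the protein coding genes tested. Their levels were low, with a median of 0.408 CPM for lncRNAs and 21.1 CPM for protein coding genes in the wildtype retinas with dox, and a lncRNA that overlaps another gene cannot be told from it if reads were counted without strand.

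Gm13394, a processed pseudogene on chromosome 2, had the smallest adjusted p of all genes, at 509, 491 and 525 CPM against 4.34, 4.46 and 2.62 CPM (7.05 ± 0.13 SE, adjusted p = 6.91e-11). It was also high without dox, since untreated PRDM13-OE retinas 2 and 3 had 507 and 494 CPM and untreated PRDM13-OE retina 1 had 4.84 CPM. Reads of a processed pseudogene can be shared with its parent gene, so its count is uncertain. AY702102, of class TEC, was at 1.06, 0.934 and 0.755 CPM and had no count in any of the other 9 retinas, which puts it at least 5.20-fold higher against a floor of 3 counts per library. Gm7135, a pseudogene, was at 1.82, 2.09 and 1.89 CPM, with at most 1 count in any wildtype retina with dox.

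Of 1186 transcription factor genes tested, 6 were called higher (0.506%) and 17 lower (1.43%), beside 0.905% and 1.5% of all genes tested. Among the higher ones, Vdr, the vitamin D receptor, was at 4.41, 2.75 and 4.26 CPM against 0.972, 0.967 and 1.01 CPM (1.94 ± 0.26 SE, adjusted p = 0.000489), and Gsc2, a goosecoid homeobox gene, at 6.65, 8.40 and 9.33 CPM against 3.26, 3.33 and 1.91 CPM (1.51 ± 0.22 SE, adjusted p = 0.000787). Both lay above all 9 other retinas. The immediate early genes Egr1 and Egr2, which follow neuronal activity and stress, were uneven among the PRDM13-OE retinas. Egr1 was at 298, 129 and 141 CPM against 98.7, 58.6 and 20.1 CPM (1.67 ± 0.44 SE, adjusted p = 0.0282), and its call was lost without any 1 of PRDM13-OE retinas 1 to 3 or wildtype retina 2, at adjusted p from 0.0508 to 0.126. Egr2 was at 1.94, 0.330 and 1.89 CPM against 0.0572, 0.376 and 0 CPM (3.14 ± 0.83 SE, adjusted p = 0.0282), and its call was lost without PRDM13-OE retina 1 or 3 or wildtype retina 1 or 3, at adjusted p from 0.0622 to 0.107. The other 12 of the 14 immediate early genes were not called, beside 0.905% of all genes tested called higher. The list's median log2 fold change was 0.67, beside 0.01 over all genes tested. Arid3c, at 1.53, 0.934 and 1.40 CPM against 0.457, 0.430 and 0.476 CPM (1.48 ± 0.36 SE, adjusted p = 0.0184), lost its call without PRDM13-OE retina 1, PRDM13-OE retina 3 or wildtype retina 2 (adjusted p 0.0584 to 0.0659).

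Sox8, a SoxE factor of glial and neural development, was the transcription factor outside the lists with the smallest adjusted p among those that fell, at 8.89, 7.80 and 7.33 CPM against 30.5, 33.3 and 34.6 CPM (-2.04 ± 0.09 SE, adjusted p = 1.66e-07). Mef2c, a MADS box regulator with roles in photoreceptors and neurons, was at 38.5, 38.0 and 44.7 CPM against 96.0, 101 and 79.1 CPM (-1.19 ± 0.09 SE, adjusted p = 6.74e-06). Zfp36l2, an RNA-binding zinc finger gene that promotes mRNA decay, was at 70.8, 63.1 and 70.6 CPM against 166, 157 and 125 CPM (-1.13 ± 0.09 SE, adjusted p = 1.27e-05), and Zfpm1, a GATA cofactor, at 13.7, 13.1 and 11.7 CPM against 26.1, 29.2 and 25.4 CPM (-1.08 ± 0.09 SE, adjusted p = 1.32e-05). All 4 were below all 9 other retinas. With wildtype retina 3 as the only control, Mef2c, Zfp36l2 and Zfpm1 were short of a call, at log2 fold changes of -0.98 (adjusted p = 3.17e-06), -0.88 (adjusted p = 1.12e-06) and -0.99 (adjusted p = 9.14e-05). Gsx1, the only gene called among 5 tested of the PRDM13 network known from the neural tube, beside 1.5% of all genes tested called lower, was at 0.294, 0.659 and 0.431 CPM against 1.43, 1.66 and 0.893 CPM (-1.51 ± 0.40 SE, adjusted p = 0.0284) and lost its call without PRDM13-OE retina 1, PRDM13-OE retina 3, wildtype retina 1 or wildtype retina 2 (adjusted p 0.0738 to 0.102). Tead4, at under 1 CPM in every retina, lost its call when any 1 of the 6 retinas was left out, at adjusted p from 0.0534 to 0.125.

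Other transcription factors outside the lists that were called lower were uneven within a group. Sox1 and Pitx3, both known from lens, were at 3.83, 4.24 and 0 CPM and 4.57, 7.79 and 0 CPM in the wildtype retinas with dox, that is, present in retinas 1 and 2 and without a count in retina 3. Msx2 was at 0.972, 0.967 and 0.119 CPM. The PRDM13-OE retinas, with at most 3 counts of each of the 3 genes in any library, were level with wildtype retina 3. Otx1 and Mecom were low in PRDM13-OE retina 1 alone among its group, at 0.177, 1.65 and 1.56 and 0.706, 1.98 and 1.46 CPM, and untreated PRDM13-OE retina 2 was also low, at 0.117 and 1.34 CPM. Msx1 was at 0.118, 0.439 and 0.377 CPM against 1.09, 3.49 and 1.13 CPM. Leaving out 1 retina ended several of these calls, those of Sox1 and Pitx3 without any 1 of the 3 PRDM13-OE retinas (adjusted p 0.0557 to 0.0688 and 0.0551 to 0.0728) and that of Otx1 without PRDM13-OE retina 3 or wildtype retina 1 (adjusted p 0.0521 to 0.0704). The call of Mecom was lost without PRDM13-OE retina 1, PRDM13-OE retina 3, wildtype retina 2 or wildtype retina 3 (adjusted p 0.071 to 0.0845), and that of Msx2 without PRDM13-OE retina 1, PRDM13-OE retina 2, PRDM13-OE retina 3, wildtype retina 1 or wildtype retina 2 (adjusted p 0.051 to 0.136).

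The lower calls differed in how even they were within the wildtype group, whose retina 3 had little lens RNA and was also the one of male type. For each lower call, the level in wildtype retina 3 was taken as a percent of the mean of wildtype retinas 1 and 2, and the 3 PRDM13-OE retinas were set against all 9 other retinas of the study. Of the 309 lower calls, 147 were below all 9 others (0.715% of the genes tested), beside 5.25% of all genes tested, called or not. Of the 186 higher calls, 112 were above all 9 others (0.545% of the genes tested), beside 4.91% of all genes tested, called or not. The 0.715% and 0.545% are parts of the 5.25% and 4.91%, so they are not shares to set against them. The like shares are 147 of 309 and 112 of 186, both above the share of all genes tested. The wildtype retinas with dox, against which the calls were made, are among the 9, so part of that excess is built in. Being below all 9 held for 17 of the 17 photoreceptor genes, 5 of the 5 blood genes, 1 of the 25 lens genes (Cryab) and 124 of the 262 genes outside the lists. In those 124 the median level of wildtype retina 3 was 99.7% of that of retinas 1 and 2, and 83 of them lay between 80 and 125%. Since wildtype retina 3 is 1 of the 9, a low level there keeps a gene out of that group, so the split itself partly sets these shares and those of the remaining genes, and they are a description. In the other 138 genes outside the lists the median was 54.9%, and 67 of them were under 50%. In the 24 lens genes that were not below all 9, the median was 1.69%.

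**Figure D3:**
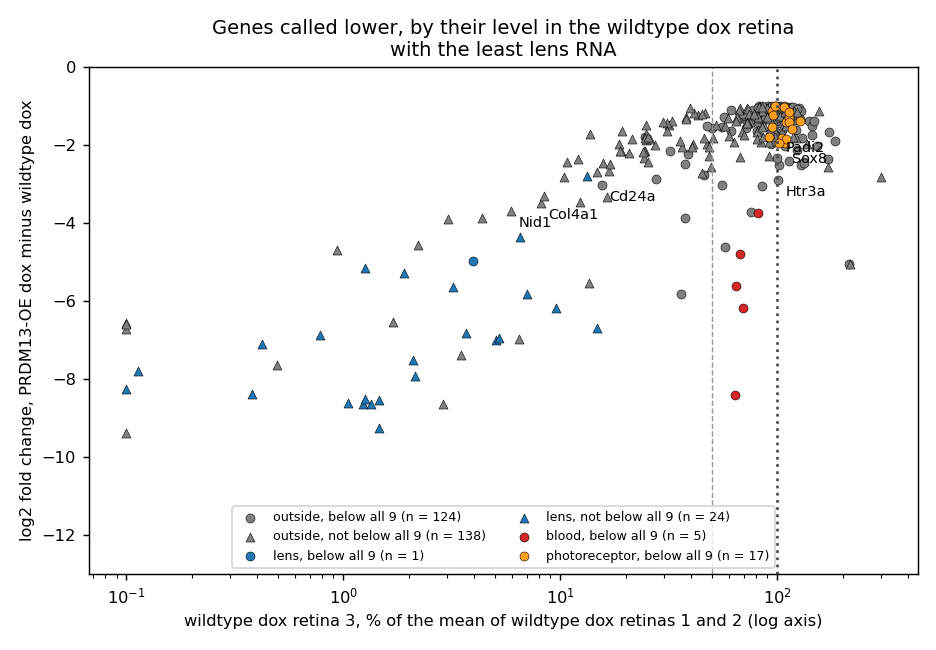
For the 309 genes called lower, the level in wildtype dox retina 3 as a percent of wildtype dox retinas 1 and 2 (log axis, values under 0.1% drawn at 0.1) against the log2 fold change (PRDM13-OE dox minus wildtype dox), with circles for genes below all 9 other retinas. The 17 photoreceptor genes gather at 100% near the top, the lens genes run to the lower left, and genes outside the lists are found in both places.

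Leaving out wildtype retinas 1 and 2 altogether, with wildtype retina 3 alone as the control and assumed to vary like the others, 186 genes were called lower, of which 144 were among the 309. They included 100 of the 147 genes that were below all 9 other retinas and 44 of the other 162. This comparison is also one of female-type with male-type retinas. With the summed crystallin level as a covariate over all 12 retinas, 90 genes were called lower and 50 higher. These included 75 of the 147, none of the other 162 and 33 of the 186 higher calls. Being below all 9 other retinas and being called with that covariate share the same 12 libraries, so the second is not an independent check of the first. Of the 155 called genes that the naming rule and the lists put forward, 49 kept their call in all 17 alternative fits and 109 kept it with each of the 6 retinas left out. With the crystallin covariate, 57 of the 155 kept their call, 80 lost it with the sign unchanged and 18 changed sign without a call. Fabp5, Cd24a, Nid1 and Cryab were among those that changed sign. Of the 80, 38 still had a log2 fold change past the limit of 1 and lost their call by p, and 7 kept an adjusted p under 0.05 and lost it by fold. The first kind included the higher calls Gm13394 (7.04, against 7.05 without the covariate), AY702102, Gm7135, Vdr (1.84), Gsc2 (1.72), Robo3 (1.56), Arid3c, Egr2, Gata1, Itga2b, Gnat3, Ccdc175, Fam71f2, Insl6, Fmo2, Akr1b8, Cyp4f39 and Cd300lf, and the lower calls Slc6a13 (-1.53), Alas2 (-2.61), Otx1, Msx1 and Tead4. The second kind included Mef2c (-0.94, adjusted p = 0.00482), Zfp36l2 (-0.97, adjusted p = 0.0216), Zfpm1 (-0.84, adjusted p = 0.00844) and Mfng (-0.98, adjusted p = 0.0196). Sox1, Pitx3, Msx2, Gsx1, Mecom, Chrnb4, Col4a1, Col4a2, Col18a1, Slit3, Penk and Ogn were short on both counts, at log2 fold changes between -0.94 for Mecom and -0.05 for Msx2.

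Among the genes below all 9 other retinas and outside the lists, several have known roles at the photoreceptors or the outer retina. Rtbdn was named by the rule, while Ankrd33, Lrit2 and Elfn1 were chosen for their level after their values were seen. Rtbdn, the retbindin gene, encodes a riboflavin-binding protein at the outer segments and was at 254, 251 and 273 CPM against 669.5, 660.0 and 635 CPM (-1.34 ± 0.05 SE, adjusted p = 1.44e-08). Ankrd33, which encodes the photoreceptor protein panky, a repressor of CRX-driven genes, was at 101, 87.7 and 116 CPM against 241, 235 and 235 CPM (-1.22 ± 0.08 SE, adjusted p = 2.80e-06). The 2 groups were separate in both genes, with a spread within groups that was small beside the difference. Lrit2, a leucine-rich repeat gene of the LRIT family, was at 116, 109 and 123 CPM against 255, 256 and 269 CPM (-1.17 ± 0.06 SE, adjusted p = 1.95e-07), and Elfn1, which organizes the rod synapse onto bipolar cells, at 60.1, 57.1 and 58.4 CPM against 129, 119 and 118 CPM (-1.06 ± 0.06 SE, adjusted p = 4.74e-07). Elfn1 lay near the fold limit, and with library size in place of TMM factors its log2 fold change was -0.97, short of a call.

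Others are enzymes, transporters and signalling genes, of which Adcy1 and Ptp4a3 were likewise chosen for their level after their values were seen. Padi2, a peptidyl arginine deiminase that converts arginine to citrulline in proteins, was at 18.1, 17.6 and 20.0 CPM against 65.1, 61.1 and 63.7 CPM (-1.77 ± 0.07 SE, adjusted p = 3.62e-08). Slc38a3, a glutamine transporter, was at 253, 255 and 251 CPM against 540.0, 535 and 584 CPM (-1.13 ± 0.05 SE, adjusted p = 8.40e-08). Me1, the cytosolic malic enzyme that makes NADPH, was at 74.6, 77.8 and 83.8 CPM against 184, 190.2 and 180.4 CPM (-1.24 ± 0.06 SE, adjusted p = 1.66e-07). In Padi2 the other 9 retinas all lay between 58.9 and 65.1 CPM. Adcy1, a calcium-stimulated adenylate cyclase, was at 173, 171 and 202 CPM against 339.9, 426 and 414 CPM (-1.12 ± 0.09 SE, adjusted p = 6.63e-06), and Ptp4a3, a phosphatase gene, at 226, 209.5 and 239.8 CPM against 471, 484 and 480.1 CPM (-1.09 ± 0.05 SE, adjusted p = 1.95e-07). Kdr, the VEGF receptor of endothelial cells, was at 113, 92.1 and 92.0 CPM against 253, 250.5 and 244 CPM (-1.33 ± 0.08 SE, adjusted p = 8.76e-07) and was the only gene called of 15 endothelial and pericyte genes, 8 of which were lower at an adjusted p under 0.05 with any fold, beside 1.5% and 7.51% of all genes tested.

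Further genes were called lower at smaller levels. Cckbr, the cholecystokinin B receptor, was at 3.59, 2.86 and 2.48 CPM against 13.0, 16.2 and 19.3 CPM (-2.45 ± 0.18 SE, adjusted p = 5.25e-06), and Htr3a, a subunit of the serotonin-gated channel, at 0.942, 0.0549 and 0.755 CPM against 3.20, 5.53 and 4.41 CPM (-2.91 ± 0.47 SE, adjusted p = 0.00176). Htr3a and Chrnb4, a nicotinic receptor subunit, were the only genes called of 32 serotonin, dopamine and acetylcholine receptor genes tested, beside 1.5% of all genes called lower, with Chrnb4 at 2.18, 3.46 and 3.88 CPM against 8.46, 7.36 and 6.91 CPM (-1.25 ± 0.20 SE, adjusted p = 0.00188). Chrnb4 was not below all 9, since untreated PRDM13-OE retina 2 had 3.86 CPM. Gulo, the last enzyme of vitamin C synthesis, was at 7.00, 5.60 and 5.01 CPM against 23.4, 24.6 and 29.6 CPM (-2.14 ± 0.14 SE, adjusted p = 1.84e-06). Ccl9, a chemokine, was at 0.765, 0.769 and 0.917 CPM against 4.86, 4.46 and 4.76 CPM (-2.51 ± 0.22 SE, adjusted p = 1.81e-05), and Frmd7, a gene of retinal direction selectivity, at 0.177, 0.385 and 0.216 CPM against 1.37, 1.40 and 1.79 CPM (-2.52 ± 0.39 SE, adjusted p = 0.00152). Lgals3, galectin 3, fell by 3.88 on the log2 scale, from 6.57, 7.41 and 2.62 to 0.177, 0.330 and 0.593 CPM, and its wildtype values with dox were themselves above the 1.36 and 2.08 CPM of the untreated retinas.

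In a list of 24 Notch pathway genes, written after the values were seen, 3 were called lower and none higher, beside 1.5% and 0.905% of all genes tested, and the median log2 fold change was -0.03. The 3 were the ligand gene Dll1, at 5.41, 9.17 and 9.06 CPM against 19.8, 18.5 and 19.1 CPM (-1.28 ± 0.16 SE, adjusted p = 0.000311), the target gene Hes5, at 1.65, 2.31 and 3.29 CPM against 10.1, 7.79 and 9.29 CPM (-1.90 ± 0.22 SE, adjusted p = 0.000169), and Mfng, which modifies Notch receptors, at 5.00, 4.56 and 5.39 CPM against 13.1, 11.4 and 10.8 CPM (-1.24 ± 0.14 SE, adjusted p = 0.000103). All 3 were below all 9 other retinas. At an adjusted p under 0.05 with any fold, 8 of the 24 were lower and 1 higher, beside 7.51% and 5.01% of all genes tested.

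Some of the larger falls outside the lists were high in wildtype retinas 1 and 2 alone. Nid1, the basement membrane protein nidogen 1, was at 79.0, 138 and 6.43 CPM in the wildtype retinas with dox, so that retina 3 was close to the 5.59, 5.38 and 6.25 CPM of the PRDM13-OE retinas. Col4a1, a chain of collagen IV, was at 259, 645 and 36.7 CPM against 29.9, 26.2 and 27.4 CPM in PRDM13-OE. Cd24a, a surface sialoglycoprotein, was at 147, 57.3 and 16.0 CPM against 8.18, 8.79 and 10.1 CPM. Nid1 and Col4a1 were highest in wildtype retina 2, although its crystallin level was below that of retina 1. Wildtype retina 3 stood at 5.93%, 8.11% and 15.6% of retinas 1 and 2 in these genes, and at 14.8% in Col4a2 and 16.7% in Slit3. Of 23 basement membrane genes, a list written after the values were seen, 10 were called lower, beside 1.5% of all genes tested, and none of the 10 was below all 9 other retinas, beside 5.25% of all genes tested, and all 10 of the collagens called lower, of 43 tested, were likewise within the range of the others. With wildtype retinas 1 and 2 left out, the log2 fold change of Nid1 was -0.17 (adjusted p = 0.702), that of Col4a1 -0.40 (adjusted p = 0.0276) and that of Cd24a -0.83 (adjusted p = 0.00288), short of a call each time. Without PRDM13-OE retina 2, the calls of Nid1 and Col4a2 were lost (adjusted p 0.0518 and 0.0546), and that of Slit3 was lost without PRDM13-OE retina 1, PRDM13-OE retina 2, PRDM13-OE retina 3 or wildtype retina 2 (adjusted p 0.0527 to 0.0718). The part of lens material in these values was not tested further.

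Several lower calls were low in the same retinas as the ciliary margin and fibroblast lists. These lists summed to 18.0, 34.4 and 29.1 and 44.1, 134 and 139 CPM in the PRDM13-OE retinas with dox and to 47.0, 54.3 and 43.8 and 252, 226 and 181 CPM in the wildtype retinas with dox, with PRDM13-OE retina 1 the lowest of its group in both. The opioid peptide gene Penk, the only one called of 37 amacrine genes, beside 1.5% of all genes tested called lower, was at 6.59, 35.9 and 28.4 CPM against 71.2, 70.2 and 45.7 CPM (-1.40 ± 0.39 SE, adjusted p = 0.035), and untreated PRDM13-OE retina 2, with 40.4 CPM on the fibroblast list, had 7.89 CPM. Its call was lost, by p or by fold, without PRDM13-OE retina 1 or 3 or wildtype retina 1 or 2, at adjusted p from 0.0083 to 0.0878. Ogn, a matrix proteoglycan and itself a member of the fibroblast list, and Col18a1, a basement membrane collagen, had the same low retinas, with 1.41, 4.50 and 6.09 and 28.1, 75.6 and 74.5 CPM in PRDM13-OE against 18.7, 16.2 and 8.04 and 149, 144 and 137 CPM. Without PRDM13-OE retina 1 the log2 fold change of Col18a1 was -0.95 (adjusted p = 2.71e-05). Ogn was short of a call with robust fitting, at adjusted p = 0.16. With the crystallin covariate the log2 fold changes were -0.34 for Penk (adjusted p = 0.9), -0.26 for Ogn (adjusted p = 0.924) and -0.68 for Col18a1 (adjusted p = 0.674). With wildtype retinas 1 and 2 left out, Penk at -0.95 (adjusted p = 0.178) and Ogn, at adjusted p = 0.144, were short of a call as well. The part of tissue carried along from the retinal edge was not tested.

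Of the 78 genes on the photoreceptor lists, 17 were called lower and 1 higher, beside 1.5% and 0.905% of all genes tested. Summed over the list, rod genes were at 56490, 58550 and 64170 CPM in the PRDM13-OE retinas and 77420, 77980 and 76330 CPM in the wildtype retinas, and cone genes at 995, 1028 and 1086 against 1677, 1713 and 1769 CPM. Of 14 rod genes, 1 was called (Nr2e3, the nuclear receptor that represses cone genes in rods, -1.40 ± 0.10 SE, adjusted p = 3.78e-06) and 11 were lower at an adjusted p under 0.05 with any fold, beside 1.5% and 7.51% of all genes tested. Of 12 cone genes, 6 were called lower and 1 higher, beside 1.5% and 0.905% of all genes tested, and with any fold 9 were lower and 2 higher, beside 7.51% and 5.01%. Opn1sw, 1 of the 6, lay at the fold limit. Its log2 fold change was short of a call with library size (-0.93), with the crystallin covariate (-0.92) and without PRDM13-OE retina 1 or wildtype retina 1 (-0.97 to -0.96). Gnat2, the cone transducin alpha subunit, was at 52.1, 48.1 and 52.6 CPM against 175, 179.5 and 194 CPM (-1.85 ± 0.06 SE, adjusted p = 1.05e-08), and Pde6c, which it activates, at 203, 238 and 235 CPM against 78.6, 96.2 and 97.2 CPM (1.31 ± 0.09 SE, adjusted p = 2.26e-06). Of 42 genes of photoreceptor structure and function, 24 were lower and 5 higher with any fold, beside 7.51% and 5.01%, and 8 were called lower, beside the same 1.5%, among them Cdhr1, the cadherin of outer segment discs, at 397, 367 and 438 CPM against 1485, 1504 and 1626 CPM (-1.95 ± 0.06 SE, adjusted p = 6.23e-09). Of 10 photoreceptor regulators, Samd11 and Prdm1 were called lower, beside the same 1.5%. With any fold 3 were lower and 3 higher, beside 7.51% and 5.01%, at a median log2 fold change of -0.06.

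**Figure D4:**
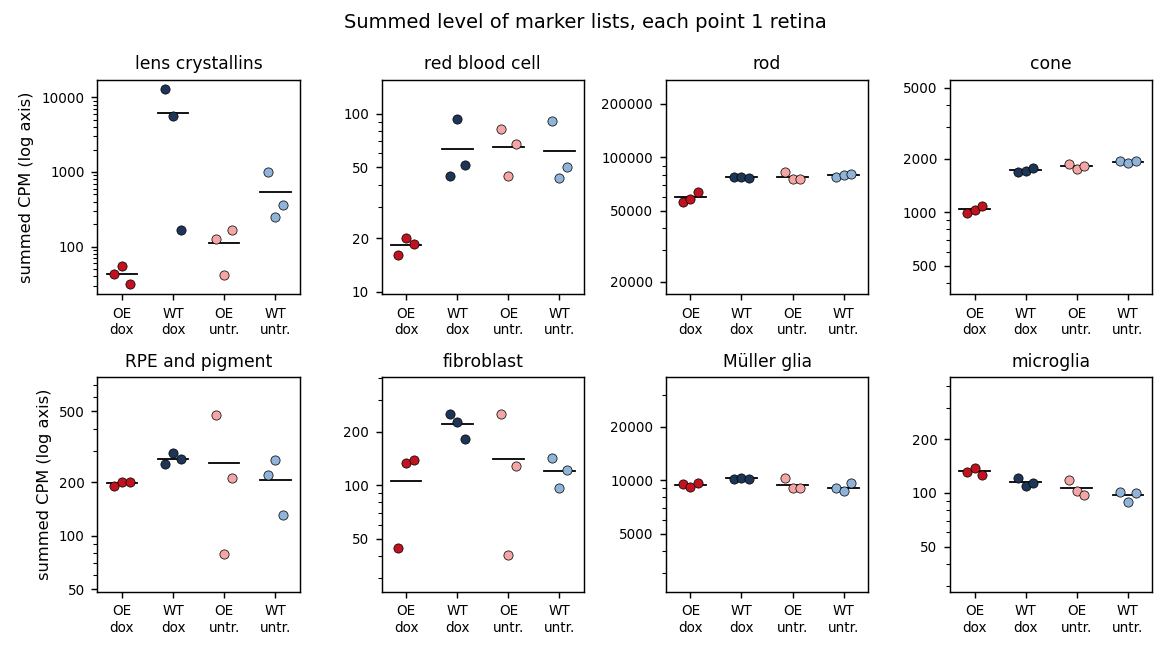
Summed CPM on a log axis of 8 marker lists in all 12 retinas, each point 1 retina and each bar the mean of 3, with OE for PRDM13-OE, WT for wildtype and untr. for untreated. PRDM13-OE dox retinas are the lowest for red blood cell, rod and cone lists, wildtype dox retinas 1 and 2 are far above the rest for crystallins, the Müller glia list overlaps between the PRDM13-OE dox and the untreated retinas, and the microglia list is higher in the 3 PRDM13-OE dox retinas than in the other 9.

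Of 8 red blood cell genes tested, 5 were called lower and 1, Gata1, higher, beside 1.5% and 0.905% of all genes tested. The lower ones, Alas2 and the globin genes Hba-a1, Hba-a2, Hbb-bs and Hbb-bt, were low in all 3 PRDM13-OE retinas with dox. With the crystallin covariate Hbb-bt (-3.79, adjusted p = 0.159) and Alas2 (-2.61, adjusted p = 0.314) lost their calls by p. Hbb-bs, adult beta globin, was at 0.118, 0.439 and 0.377 CPM against 16.6, 35.0 and 17.9 CPM (-6.17 ± 0.41 SE, adjusted p = 2.28e-06), and the untreated retinas lay between 11.6 and 36.8 CPM. Hba-a2 had no count in any PRDM13-OE retina with dox and was at 0.972, 4.46 and 1.73 CPM in wildtype, at least 12.9-fold lower against a floor of 3 counts per library, with its call lost in the robust fit (adjusted p = 0.0801). The globin genes are near-identical pairs, so their counts may be split between copies. Hbb-bs was called in every alternative fit, and its fall is in the same direction as that of Alas2, the heme synthesis enzyme of erythroid cells, at 0.118, 0.0549 and 0.162 CPM against 1.09, 2.26 and 1.37 CPM (-3.74 ± 0.51 SE, adjusted p = 0.000593).

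The inner retina and the glia gave 1 call. None of 20 bipolar, 7 horizontal and 16 ganglion cell genes was called, nor any of 17 Müller glia, 16 reactive glia and 16 microglia genes, and 1 of 37 amacrine genes was (Penk). Of all genes tested, 0.905% were called higher and 1.5% lower, and at those shares lists this short can hold no call. The median log2 fold changes were -0.27 for bipolar, -0.35 for horizontal, -0.14 for ganglion, -0.13 for amacrine and -0.22 for Müller glia genes, and 0.33 for microglia genes. At an adjusted p under 0.05 with any fold, 8 bipolar, 4 horizontal, 3 ganglion, 7 amacrine and 9 Müller glia genes were lower, beside 7.51% of all genes tested, and 1 bipolar, 1 amacrine and 3 Müller glia genes were higher, beside 5.01%. Summed microglia genes were at 132, 139 and 127 CPM in PRDM13-OE and 121, 110.0 and 114 CPM in wildtype retinas with dox, and the other 9 retinas reached at most 120.9 CPM. At an adjusted p under 0.05 with any fold, 2 of the 16 microglia genes were higher, beside 5.01% of all genes tested. None of 18 interferon and MHC class I genes, 12 p53 targets, 18 clock genes, 18 cholesterol synthesis genes and 13 genes of the mitochondrial genome was called, beside 2.41% of all genes tested called in either direction.

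Across gene families, solute carriers were called in both directions, 8 higher and 7 lower of 320 tested, beside 0.905% and 1.5% of all genes. Beside Slc29a4 and Slc38a3 they included Slc6a13, a GABA transporter, at 4.71, 5.77 and 5.50 CPM against 19.3, 18.7 and 20.5 CPM (-1.87 ± 0.11 SE, adjusted p = 1.26e-06). None of 86 potassium channel genes, 26 glutamate receptor genes, 22 GABA and glycine receptor genes, 98 cytosolic ribosomal protein genes and 93 respiratory chain genes was called, and the 390 zinc finger protein genes gave 1 call, Zfp36l2. Of all genes tested, 2.41% were called in either direction. Of 7 Robo and Slit genes, Robo3, an axon guidance receptor, was higher at 2.18, 2.64 and 2.48 CPM against 0.915, 1.02 and 0.536 CPM (1.54 ± 0.29 SE, adjusted p = 0.00441), and Slit3 was lower where wildtype retinas 1 and 2 were high.

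At the insertion site, the Rosa26 transcript Gt(ROSA)26Sor was at 16.3, 18.3 and 14.9 CPM against 11.2, 9.34 and 10.7 CPM (0.66 ± 0.12 SE, adjusted p = 0.00302), short of the fold limit, and its neighbour Setd5 at 124, 145 and 129 CPM against 100.0, 106 and 101 CPM (0.37 ± 0.07 SE, adjusted p = 0.00316). Within 5 Mb on either side, 106 genes were tested, of which 1 was called higher (Gm43935) and 1 lower (Tmem40), both named after their values were seen, beside 0.905% and 1.5% of all genes tested. Of 23 genes taken from those the study names for these data, an incomplete list chosen on these samples and so not independent evidence, 15 were called lower and 3 higher, beside 1.5% and 0.905% of all genes tested. Of the 15, Abi3bp lost its call without PRDM13-OE retina 1 or wildtype retina 2, Igfbp7 without any 1 of the 3 PRDM13-OE retinas, and Htra3 without any 1 of those or wildtype retina 2. Tyrosine hydroxylase (Th), with 4.88, 3.96 and 3.13 CPM against 4.00, 3.49 and 4.23 CPM, and Npy, with 10.1, 7.36 and 10.5 CPM against 10.7, 11.0 and 12.0 CPM, were among the 5 not called.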

How the data were processed

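Total RNA of single neural retinas was sequenced by Novogene, and the authors deposited raw read counts per mouse gene, 1 column per library. The submitters' processing notes name CASAVA, HISAT2 and the build GRCm39 (mm39). The counting program, its strand setting and the annotation release are not given in the sources used here. The deposited table also holds FPKM values and the authors' own fold changes and p-values, which were not used. In all, 36 columns of per-sample counts or FPKM values were left out.

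Genes reaching 10 counts in total across the 6 libraries were tested with edgeR 4.0.16 (R 4.3.3) by TMM scaling and the quasi-likelihood F test, with no covariate, after the procedure was tested on simulated data. Calls needed a Benjamini-Hochberg adjusted p below 0.05 and an absolute log2 fold change over 1, and SE is the fold change over the square root of F. Counting error is only part of the spread between the retinas, and p-values measure the spread between these samples. The 6 untreated retinas gave reference levels and the interaction of genotype with dox.

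The members and lists were chosen with earlier results of these data known. Genes were named by rule as the 15 largest protein coding rises and falls outside the lists among calls without overlap and with at least 10 counts in each library of the higher group. Called transcription factors, called list members, the 5 smallest adjusted p in each direction and the 3 largest changes in each direction of other biotypes were added, as were the study's own list, sex-linked genes and the insertion site. Genes named outside the rule are given as chosen after their values were seen. Alternatives were DESeq2 1.42.0, library size, no filter, filterByExpr, all 12 retinas, a replicate block, robust fitting, no fold limit, each retina left out, both high-crystallin wildtype retinas left out, a crystallin covariate and a sex term. The values of 1 list member under the alternatives are not reported here.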

Additional observations from a re-analysis of the deposited data

Results flagged for a closer look

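The genotype difference with dox was set against the genotype difference without dox in 1 fit over all 12 retinas, for the 36 genes outside the lists that had the largest changes or the smallest adjusted p. For 28 of them, 11 higher and 17 lower, the 2 differences differed at an adjusted p of at most 0.0466 over all genes tested (edgeR). These genes were chosen for their difference with dox, so the test is not independent of that choice. The values that follow are the log2 genotype difference with dox minus that without. For genes higher in PRDM13-OE with dox they were 7.27 for Fabp7, 3.44 for Tmem26, 3.35 for Gje1, 3.37 for Fam71f2, 2.49 for Ppef1, 4.36 for Insl6, 3.24 for Gnat3, 2.90 for Rspo2, 2.10 for Prtg, 2.09 for Akr1b8 and 2.22 for Slc29a4.

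For genes lower with dox and below all 9 other retinas they were -1.12 for Slc38a3, -0.99 for Me1, -1.36 for Rtbdn, -1.77 for Padi2, -1.99 for Sox8, -2.80 for Aqp5, -2.63 for Ccl9, -2.72 for Frmd7, -2.26 for Pm20d1, -3.45 for Spon2, -3.30 for Htr3a, -2.70 for Tmprss5, -2.83 for Cd24a and -4.01 for Lgals3. For the basement membrane genes, which were high in wildtype dox retinas 1 and 2 alone, they were -3.48 for Col4a1, -2.88 for Col4a2 and -3.65 for Nid1. In Cd24a, Aqp5, Spon2, Lgals3 and Pm20d1, named above as below all 9, wildtype dox retina 3 was also under 50% of the mean of wildtype dox retinas 1 and 2. In Cd24a it was at 15.6%. The part of wildtype dox retinas 1 and 2 in all these differences was not tested.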

How the results depend on the processing

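Dropping the fold change cutoff moved the counts most, to 1030 rises and 1545 falls. Outside the lens, blood and photoreceptor lists lay 1018 and 1468, and 582 and 815 were outside the range of all 9 other retinas. With library size in place of TMM factors, 276 higher genes lay outside the lists. With the crystallin level as a covariate over all 12 retinas, 50 genes were higher and 90 lower, 49 and 71 outside the lists, 44 above and 87 below all 9 others. With both high-crystallin wildtype retinas left out, 186 genes were lower, 151 of them outside the lists. Leaving out each retina in turn gave 109 (without PRDM13-OE retina 2) to 172 higher and 209 to 346 lower genes, 107 (without PRDM13-OE retina 2) to 170 and 168 (without PRDM13-OE retina 1) to 297 of them outside the lists, and 77 to 101 above and 125 to 136 below all 9 others. DESeq2 gave 134 rises and 260 falls, and edgeR shared 128 and 252 of them. The sex term, added after seeing the data, gave 149 and 277. Robust fitting gave 221 and 224, with 17 photoreceptor genes lower and none of the 25 lens genes called, whose folds were unchanged while p rose (Cryaa at -8.61, adjusted p = 0.101).

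Reversed log2 fold changes were those of Htra3 (to 0.26), Aldh3a1 (to 0.53) and Grifin (to 0.55) with both high-crystallin wildtype retinas left out, and of Perp (to 0.25), Phgdh (to 0.13), Fabp5 (to 0.47), Col4a6 (to 0.00106), Igfbp7 (to 0.22), Htra3 (to 0.59), Lgsn (to 0.25), Hspg2 (to 0.35), Cd24a (to 0.062), Nid1 (to 0.43), Bfsp1 (to 0.27), Cryab (to 0.22), Grifin (to 2.51), Crygn (to 1.13), Lctl (to 3.60), Gja3 (to 1.20) and Mip (to 4.52) with the crystallin covariate. None of these was called under that alternative. The cause was not tested.

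Same-numbered retinas of the 2 genotypes correlated at 0.043, 0.032 and 0.040 in their deviations from the group means, all under 0.1, so the numbers were not taken to pair the mice, although each retina correlated best with its own number, a hint from the data and not from the design. With the replicate block, the calls were 164 rises and 314 falls, 156 and 287 of them shared with the fit without it. Low counts limit many higher calls, 48 of which had a mean under 1 CPM in the PRDM13-OE retinas, against 22 of the lower calls in the wildtype retinas. Lens content and sex cannot be told apart within the wildtype group. The counts above and below all 9 other retinas were also added after seeing the data.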

Other observations

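Among abundant genes outside the lists that were below all 9 other retinas, chosen by level after their values were seen, some sat close to the fold limit. Susd3, a sushi domain protein gene, was at 66.0, 58.5 and 74.8 CPM in the PRDM13-OE retinas with dox against 164, 168 and 164 CPM in the wildtype retinas with dox (log2 fold change -1.32 ± 0.08 SE, adjusted p = 8.76e-07). Epb41l5, a regulator of epithelial polarity at the membrane skeleton, was at 49.1, 42.6 and 43.4 CPM against 88.9, 101 and 95.4 CPM (-1.08 ± 0.07 SE, adjusted p = 2.17e-06), and with library size in place of TMM factors it was -0.99 (adjusted p = 3.90e-06). Herc3, a ubiquitin ligase gene, was at 232, 237 and 252 CPM against 450.4, 501 and 527 CPM (-1.04 ± 0.06 SE, adjusted p = 8.52e-07), and without wildtype retina 3 or with library size its log2 fold change was -0.99 or -0.95, short of the limit. The other 9 retinas lay between 151 and 194 CPM in Susd3 and between 440.2 and 566 CPM in Herc3.

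Smaller transcripts with large falls lay below all 9 as well. Tmprss5, a membrane serine protease, was at 0.235, 0.275 and 0.0539 CPM against 1.71, 1.93 and 1.01 CPM (-3.02 ± 0.49 SE, adjusted p = 0.00193), and Pm20d1, a secreted enzyme of N-acyl amino acids, at 0.118, 0.330 and 0.593 CPM against 3.09, 2.85 and 1.37 CPM (-2.77 ± 0.47 SE, adjusted p = 0.00235). The lncRNA A730036I17Rik was at 0.353, 0.165 and 0.270 CPM against 1.83, 2.79 and 1.96 CPM (-3.05 ± 0.37 SE, adjusted p = 0.000246), and the lncRNA Gm32585 at 0.471, 0.220 and 0.270 CPM against 1.20, 1.50 and 2.32 CPM (-2.38 ± 0.42 SE, adjusted p = 0.00309). In the water channel gene Aqp5 and the matrix gene Spon2 the wildtype retinas with dox were uneven, at 5.77, 5.37 and 2.08 and 4.12, 14.0 and 2.50 CPM, against 0.706, 0.659 and 0.970 and 1.12, 0.879 and 0.809 CPM in PRDM13-OE. With the crystallin covariate, the calls of Tmprss5 (-2.01), Pm20d1 (-1.51), Aqp5 (-1.15) and Spon2 (-1.71) were lost by p, and with both high-crystallin wildtype retinas left out those of Tmprss5, Pm20d1 and Aqp5.

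Among the higher calls, Scara5, a ferritin receptor, was at 10.0, 8.79 and 11.6 CPM against 2.86, 3.28 and 4.35 CPM (1.53 ± 0.18 SE, adjusted p = 0.000181), and Arrdc2, an arrestin domain gene, at 47.9, 24.8 and 49.4 CPM against 14.7, 12.8 and 8.28 CPM (1.76 ± 0.25 SE, adjusted p = 0.000665), with PRDM13-OE retina 2 at the low end. Cd276, an immune checkpoint ligand, was at 27.4, 29.2 and 24.6 CPM against 13.0, 13.3 and 12.7 CPM (1.05 ± 0.09 SE, adjusted p = 1.19e-05), and leaving out PRDM13-OE retina 2 took it to 0.99, short of the fold limit. All 3 genes lay above all 9 other retinas, and with the crystallin covariate Scara5 at 1.09 (adjusted p = 0.0595) and Arrdc2 at 1.81 (adjusted p = 0.176) lost their calls by p alone, as Arrdc2 did with robust fitting (1.76, adjusted p = 0.0653).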
